A study of Mus musculus with 17 samples.

Results

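The chemokine ligand genes of the mouse were followed through 12 RNA-seq libraries. The series concerns supratentorial ependymoma, a glial tumour of the upper brain, and fusion proteins that contain the transcriptional co-activator YAP. Members were chosen by gene symbol: every symbol made of Ccl or Cxcl with a number, plus Cx3cl1, Xcl1, Ppbp and Pf4. This gave 41 genes of the 52850 symbols in the count tables. Of these, 32 reached 1 CPM (the count scaled to a common library size) in at least 2 libraries and were tested, and 9 did not (Ccl1, Ccl21c, Ccl22, Ccl24, Ccl26, Cxcl3, Cxcl15, Cxcl17 and Xcl1).

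Chemokines are small secreted proteins that bind G protein-coupled receptors on leukocytes and other cells and draw those cells along a gradient. Their names follow the spacing of the first cysteines (CC, CXC, CX3C or XC). Inflammatory chemokines are made on stimulation by many cell types, often through NF-kB or interferon signalling, and recruit neutrophils, monocytes or activated T cells. Homeostatic chemokines such as Cxcl12 and Cx3cl1 are made in resting tissue, and in the brain Cx3cl1 from neurons signals to microglia, the resident macrophages, which carry its receptor Cx3cr1.

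Each group is named as in its sample titles. YAP-M held 4 libraries of brain tumours that arose after in utero electroporation of the construct YAP-M, which delivers plasmid DNA into the embryonic brain. YMdIDR held 3 libraries made with the construct YAP-MΔIDR; one label field names brain tumour tissue and another names neural progenitors derived from embryonic stem cells. SVZ held 3 libraries labelled wild-type, although their tissue field reads brain tumour. NSC-YAP held 2 libraries of cultured neural progenitors, derived from embryonic stem cells and overexpressing YAP. No strain, age, promoter or number of animals is given, and no label ties a replicate to its own animal or culture, so p-values measure the spread between these libraries, which may be technical. Since these are bulk samples, fewer cells of a type and less RNA per cell cannot be told apart.

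Total counts ran from 20784130 to 25463303 per library, and 3 counts corresponded to 0.11 to 0.147 CPM. Yap1 stood at 24.9 ± 3.19 CPM in SVZ (SD, n = 3), 97.2 ± 5.77 in YAP-M (SD, n = 4) and 240 ± 2.13 in NSC-YAP (SD, n = 2), and at 183, 838 and 1274 CPM in YMdIDR replicates 1, 2 and 3. YMdIDR replicate 1 stood apart from the other YMdIDR libraries, with a chi-square per gene of 64.1 and 84.2 against them and 31.8 between them. Pairs of YAP-M libraries ran from 19.6 to 54.4, so the lower of its values lay not far above the spread within YAP-M. For ligands, calls in comparisons with YMdIDR that changed without replicate 1 are also given. Summed macrophage markers (12 genes) were 376 to 484 CPM in SVZ, 2199 to 3279 in YAP-M, 2693 to 3411 in YMdIDR and 42.6 to 45 in NSC-YAP. The YMdIDR libraries thus carried macrophage transcripts at tumour level, unlike the cultured NSC-YAP cells. Oligodendrocyte markers (5 genes) summed to 23298 to 27832 CPM in SVZ and 526 to 2691 in YAP-M, and mitochondrial genes took 12.7 to 17% of counts in SVZ and 4.91 to 6.5% in YAP-M.

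The construct groups differed from SVZ in which ligands made up the total, whereas NSC-YAP had a lower total led, as in SVZ, by Cx3cl1. All 41 ligands together summed to 734 to 850 CPM in SVZ, 486 to 588 in YAP-M, 635 to 816 in YMdIDR and 143 to 147 in NSC-YAP. In SVZ, Cx3cl1 took 60.5 to 67.3% of the ligand counts, and in YAP-M it took 4.36 to 8.34%. Ppbp took 15.7 to 40.6% of the ligand counts in YAP-M and at most 0.007% in SVZ. Per kilobase of annotated transcript, the highest mean levels in SVZ were those of Cx3cl1 (129 ± 14.7 CPM per kb, SD, n = 3), Cxcl14 (54.4 ± 4.07) and Ccl27a (18.9 ± 3.12). In YAP-M the order was Ppbp (119 ± 58.7 CPM per kb, SD, n = 4), Cxcl14 (69.2 ± 30), Ccl7 (22.5 ± 6.49), Ccl12 (18.3 ± 5.2) and Cxcl16 (18.2 ± 3.71), of which the first pair and the last 3 do not separate beyond their SD. In YMdIDR, Ppbp (105 ± 149 CPM per kb, SD, n = 3), Cxcl13 (97.8 ± 78.5) and Ccl12 (71.7 ± 5.83) led and overlapped within their spread. In NSC-YAP, Cx3cl1 (28.6 ± 0.222 CPM per kb, SD, n = 2) stood above Cxcl14 (6.8 ± 0.197), and 20 ligands had no count in either library.

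**Figure D1:**
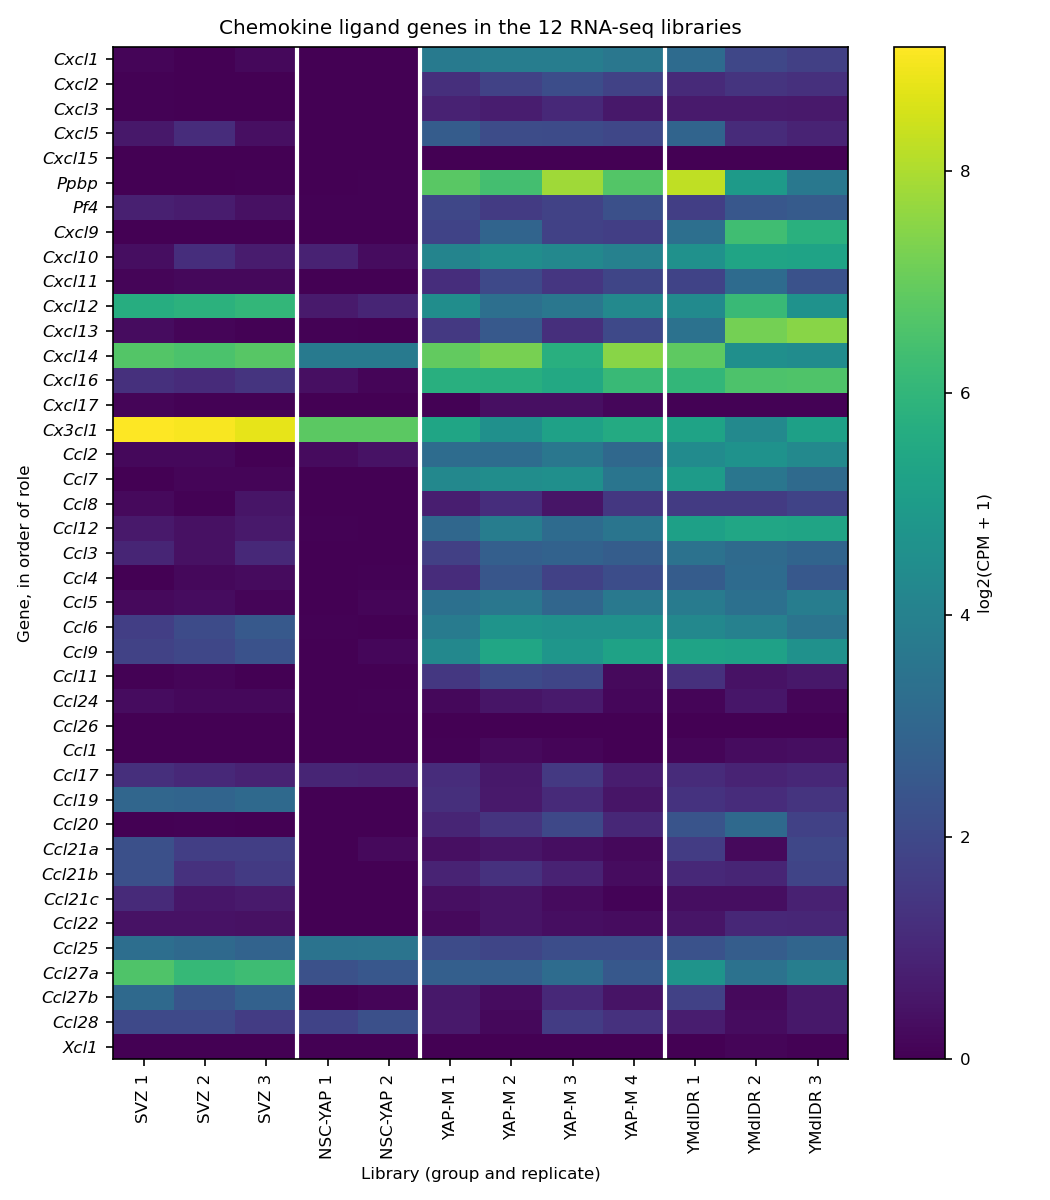
Level of each of the 41 chemokine ligand genes (rows, in order of role) in each of the 12 libraries (columns, by group and replicate), as log2(CPM + 1), where brighter means higher. Cx3cl1 is the brightest row in SVZ, Ppbp is bright in YAP-M and in YMdIDR replicate 1, and Cxcl9 and Cxcl13 are bright in YMdIDR replicates 2 and 3.

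Libraries with either construct carried more transcripts of most inflammatory chemokines than SVZ and fewer of Cx3cl1 and of several lymphoid and barrier chemokines. Calls required that edgeR's adjusted p lay below 0.05 and that the level differed by 1 or more on the log2 scale. In YAP-M against SVZ, 21 of the 41 ligands were called higher, where 25.8% of all 18329 tested genes were called higher, and 8 were called lower, where 28.9% of all genes were (54.7% in either direction). Another 3 were tested and not called (Ccl17, Ccl28 and Cxcl14). The median log2 fold change over the 32 tested ligands was 3.0, against -0.04 over all genes. However, 18 of the 32 reached the filter on low counts through the construct libraries and not in the controls, so these counts and medians describe the ligands and lend no support to a direction. In YMdIDR against SVZ, 21 ligands were called higher (26.9% of all genes) and 5 lower (29.6%), with a median of 3.40 against -0.01. Without YMdIDR replicate 1, Ccl11 (3.05, edgeR adjusted p = 0.072) and Cxcl5 (0.60, adjusted p = 0.33) lost their call there. Cxcl14 was then called lower than in SVZ (-2.215, adjusted p = 0.00054). The SVZ libraries serve as controls in both comparisons. With all libraries, 21 genes were higher and 4 lower in both.

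Many ligand genes lie side by side. The 6 stretches of the genome that hold at least 3 ligand genes with gaps of at most 200000 bases were compared in YAP-M against SVZ. On chromosome 5 between 90759360 and 90905938 (mm10), which holds Cxcl5, Ppbp, Pf4, Cxcl3, Cxcl15, Cxcl1 and Cxcl2, the 5 tested genes were called higher. So were the 3 tested genes of the Cxcl9, Cxcl10 and Cxcl11 stretch on chromosome 5 from 92321347 to 92365485. On chromosome 11, the 5 tested genes from 82035571 to 82305690 (Ccl2, Ccl7, Ccl11, Ccl12 and Ccl8) and the 5 from 83525778 to 83664683 (Ccl5, Ccl9, Ccl6, Ccl3 and Ccl4) were called higher. The stretch on chromosome 4 from 42655251 to 42773993 (Ccl27b, Ccl19 and Ccl21a) had its 3 tested genes called lower. On chromosome 8 from 94745590 to 94812036, Cx3cl1 was called lower and Ccl17 not called, and Ccl22 was not tested. Over all tested genes 25.8% were called higher and 28.9% lower, and many of the ligands called higher here reached the filter through the construct libraries, so these counts are a description. No test of a shared direction was made, and neighbouring chemokine genes arose by duplication.

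**Figure D2:**
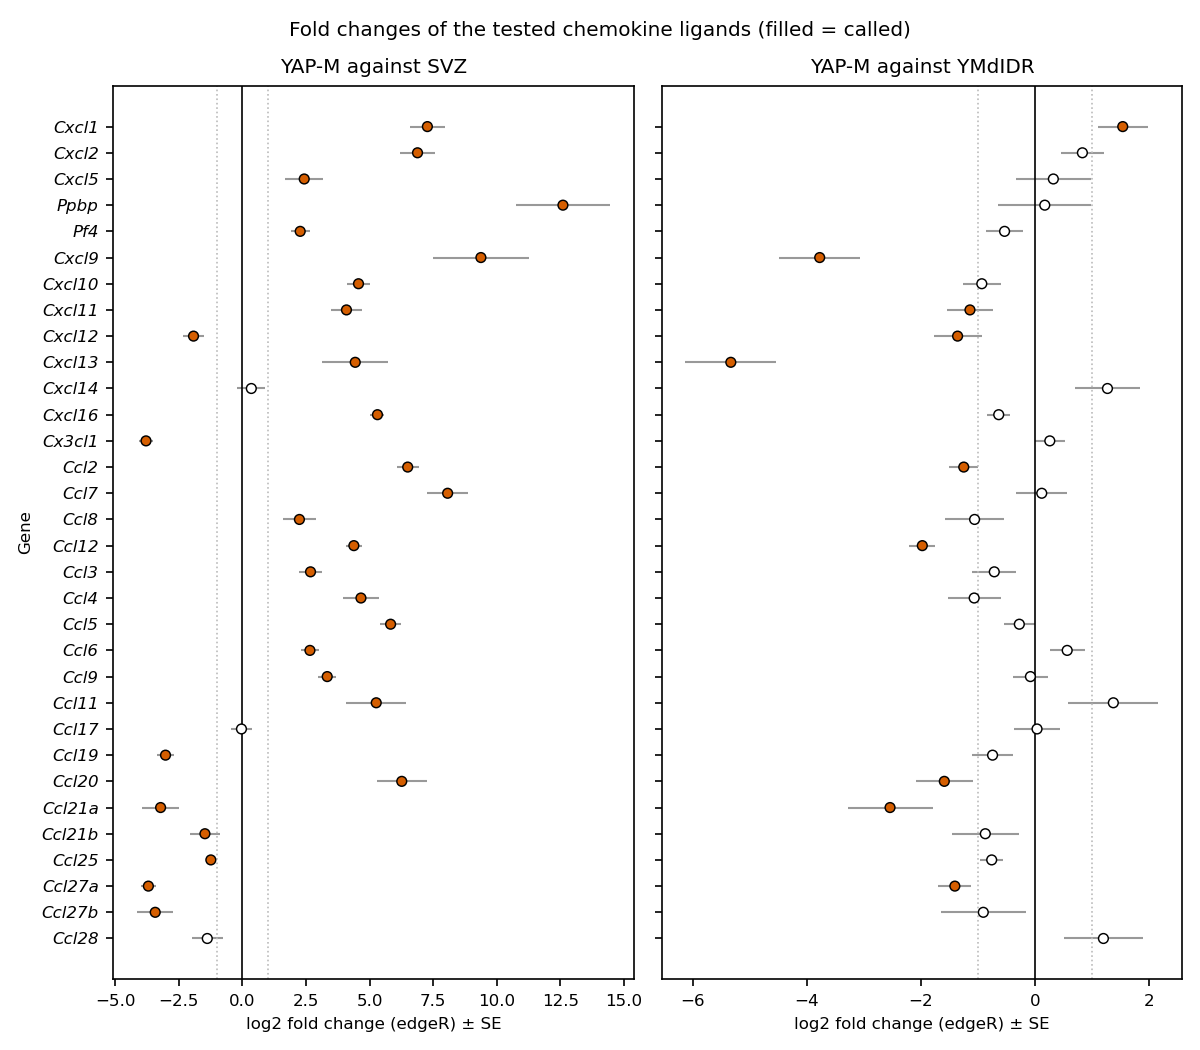
log2 fold changes (x axis, edgeR, with SE as bars) of the 32 tested chemokine ligands (y axis, in order of role) in YAP-M against SVZ on the left and against YMdIDR on the right; filled points were called and dotted lines mark log2 fold changes of -1 and 1. On the left 21 filled points lie right of 0 and 8 left of it, and on the right 1 filled point (Cxcl1) lies right of 0 and 9 lie left of it.

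Promoter sequences are shown for 5 ligands that set the groups apart: Ppbp, Cxcl1, Cxcl10, Cxcl9 and Cxcl13. Each is the 250 bases before the RefSeq start (build GRCm38.p6, the same assembly as mm10), on the gene's strand, 5′ to 3′, with matches in capitals. The motifs searched on both strands were GGG followed by any 3 bases and TTCC (NF-kB type), GAAA followed by any 2 bases and GAAA (interferon response element type), GGAATG (TEAD type, the DNA-binding partners of YAP) and TGANTCA (AP-1 type). Overlapping matches are joined into a single run of capitals. The Ppbp window is chr5:90768268-90768517 (+), that of Cxcl1 chr5:90890995-90891244 (+), of Cxcl10 chr5:92348890-92349139 (-), of Cxcl9 chr5:92328080-92328329 (-) and of Cxcl13 chr5:95956689-95956938 (+).
Ppbp: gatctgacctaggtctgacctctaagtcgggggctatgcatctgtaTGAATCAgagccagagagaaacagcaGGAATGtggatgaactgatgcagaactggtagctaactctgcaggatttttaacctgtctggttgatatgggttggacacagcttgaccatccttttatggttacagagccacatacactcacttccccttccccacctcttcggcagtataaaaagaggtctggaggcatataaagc
Cxcl1: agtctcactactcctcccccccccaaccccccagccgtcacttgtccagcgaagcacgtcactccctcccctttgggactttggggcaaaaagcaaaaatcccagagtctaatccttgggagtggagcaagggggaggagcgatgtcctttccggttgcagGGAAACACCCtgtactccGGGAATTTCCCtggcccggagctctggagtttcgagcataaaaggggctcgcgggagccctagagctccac
Cxcl10: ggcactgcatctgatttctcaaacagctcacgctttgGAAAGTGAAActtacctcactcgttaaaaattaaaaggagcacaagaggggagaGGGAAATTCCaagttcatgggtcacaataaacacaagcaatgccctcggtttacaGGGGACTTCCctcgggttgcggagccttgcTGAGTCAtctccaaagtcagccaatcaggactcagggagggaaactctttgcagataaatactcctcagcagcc
Cxcl9: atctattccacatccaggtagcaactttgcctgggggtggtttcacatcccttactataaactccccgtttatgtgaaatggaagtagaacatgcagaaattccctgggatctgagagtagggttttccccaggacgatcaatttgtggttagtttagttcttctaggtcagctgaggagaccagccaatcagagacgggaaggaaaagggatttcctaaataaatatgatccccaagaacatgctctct
Cxcl13: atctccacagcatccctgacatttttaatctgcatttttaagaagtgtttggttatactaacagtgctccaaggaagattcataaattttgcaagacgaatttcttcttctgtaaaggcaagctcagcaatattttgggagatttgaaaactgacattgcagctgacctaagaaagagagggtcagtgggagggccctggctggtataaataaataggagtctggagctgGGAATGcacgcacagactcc

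In the Ppbp window the capitals mark a TGANTCA and a GGAATG match, and in Cxcl1 they mark NF-kB-type matches, among them GGGAATTTCC. Cxcl10 held an interferon-type match (GAAAGTGAAA), a pair of NF-kB-type matches and a TGANTCA match, Cxcl13 held a GGAATG match, and the Cxcl9 window held no match to these letters. RefSeq promoters were at hand for 29 of the 41 ligands, as 35 entries. The NF-kB-type motif stood in 7 of the 35 entries (20.0%; Ccl1, Ccl20, Ccl9, Cxcl1, Cxcl10, Cxcl2 and Cxcl3) and in 4.65% of all 32851 promoters of the same length. The interferon-type motif stood in 3 entries (8.57%) against 2.98% of all, TGANTCA in 5 (14.3%) against 6.75% and GGAATG in 5 (14.3%) against 12.6%. A match is a stretch of letters and not a measured binding site. The protein-binding samples of the series were not analysed here.

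Neutrophil-attracting CXC ligands signal through CXCR2. In YAP-M against SVZ, the 4 tested of 6 (Cxcl1, Cxcl2, Cxcl5 and Ppbp) were called higher and none lower. Ppbp encodes pro-platelet basic protein, which is stored in platelets and cut to the CXCR2 ligand CXCL7. It measured 108, 82.5, 223 and 103 CPM in YAP-M, 300, 30.6 and 11.6 CPM in YMdIDR, 0, 0 and 0.0489 CPM in SVZ and 0 and 0.0408 CPM in NSC-YAP. Every construct library lay far above every control library, and YMdIDR replicate 1 lay above the YAP-M libraries while YMdIDR replicates 2 and 3 lay below them. SVZ held 1 count of Ppbp in all, so the ratio of counts in YAP-M to SVZ was 8110 (95% counting interval 1455 to 320365), with edgeR adjusted p = 7.4e-05. In YMdIDR against SVZ the ratio was 7523 (1350 to 297167). YAP-M and YMdIDR did not differ past the threshold with all libraries (log2 fold change 0.18 ± 0.81 SE, edgeR adjusted p = 0.88), whereas without YMdIDR replicate 1 Ppbp was higher in YAP-M by 2.61 ± 0.49 (SE, edgeR adjusted p = 0.0018).

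The 8 platelet and megakaryocyte markers summed to 12.1 to 13.4 CPM in YAP-M, 11.7 to 16.9 in YMdIDR, 22.7 to 29.3 in SVZ and 18.7 to 20.8 in NSC-YAP. Within YMdIDR the sum was 16.9, 12.3 and 11.7 CPM in replicates 1, 2 and 3, the same order as Ppbp. Within YAP-M it was 12.1, 12.6, 13 and 13.4 CPM in replicates 1, 2, 3 and 4, which was not the order of Ppbp. Of the 4 tested, none was called higher in YAP-M than in SVZ and Gp1bb was called lower, and against YMdIDR Gp1ba was called higher and Gp1bb lower. Log2 fold changes of the 4 in YAP-M against SVZ ran from -3.38 to 0.90, with a median of 0.32. The lower sum was thus not shared by each marker. In the cultured NSC-YAP cells Itga2b was called higher than in SVZ and Gp1bb lower. The part of platelets in the Ppbp values was not tested. Gp9 measured at most 0.128 CPM in any YAP-M library. Pf4, platelet factor 4, which lies beside Ppbp and is also stored in platelets, measured 2.04 to 3.67 CPM in YAP-M, 2.27 to 5.21 in YMdIDR, 0.342 to 0.737 in SVZ and 0.0407 to 0.0408 in NSC-YAP. It was called higher in YAP-M than in SVZ (2.27 ± 0.38 SE, edgeR adjusted p = 0.0002), a far smaller difference than that of its neighbour.

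Cxcl1, a CXCR2 ligand induced by inflammatory cytokines, was the single ligand called higher in YAP-M than in YMdIDR. It measured 12.7, 13.6, 13.7 and 11.4 CPM in YAP-M, 8.04, 2.84 and 2.3 CPM in YMdIDR, 0.0921, 0 and 0.147 CPM in SVZ and 0 in both NSC-YAP libraries. The 4 YAP-M libraries lay close together and above the YMdIDR libraries, with no overlap. Cxcl1 was higher in YAP-M than in SVZ by 7.27 ± 0.69 (log2 fold change, SE, edgeR adjusted p = 5.0e-06) and than in YMdIDR by 1.54 ± 0.44 (adjusted p = 0.017), the latter 2.32 ± 0.32 without YMdIDR replicate 1. That call was lost without YMdIDR replicate 2 (1.34, adjusted p = 0.054) or 3 (1.24, adjusted p = 0.050). Cxcl5 measured 2.82 to 5.22 CPM in YAP-M, 6.67, 1.17 and 0.883 CPM in YMdIDR, 0.293 to 1.21 in SVZ and 0 in NSC-YAP, and so split the YMdIDR libraries as Ppbp did. Its difference between the constructs was 0.33 ± 0.66 (SE, adjusted p = 0.72), and 1.83 ± 0.50 (adjusted p = 0.015) without YMdIDR replicate 1. Cxcl2 measured 1.32 to 3.5 CPM in YAP-M, 1.11 to 1.58 in YMdIDR and at most 0.0461 elsewhere, and Cxcl3 0.519 to 1.07 and 0.53 to 0.598 CPM in the same groups and at most 0.0461 elsewhere. Cxcl15 had no count in any library.

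The receptor of these ligands was measured at low levels. Cxcr2 stood at 0.184 to 2.22 CPM in YAP-M, 3.38, 0.405 and 0.132 CPM in YMdIDR and at most 0.0921 elsewhere. The 7 neutrophil markers summed to 34.8 to 56.8 CPM in YAP-M, 31.8 to 60 in YMdIDR, 9.07 to 11.3 in SVZ and at most 0.122 in NSC-YAP, and the defining marker Ly6g measured at most 0.0426 CPM in any library. Of the 4 tested neutrophil markers, 4 were called higher in YAP-M than in SVZ (25.8% of all genes were) and 3 (S100a8, S100a9 and Mmp9) higher than in YMdIDR (9.61%). In YMdIDR against SVZ, Csf3r alone was called higher (26.9% of all genes were) and the other 3 were not called. Log2 fold changes of the 4 there ran from -1.35 to 2.32. The part of neutrophils in the ligand values was not tested.

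Interferon-induced CXC ligands signal through CXCR3 on activated T and NK cells. The 3 members were called higher in YAP-M than in SVZ, and Cxcl9 and Cxcl11 were called lower in YAP-M than in YMdIDR. In that comparison between the constructs 9 of the 41 ligands were called lower in YAP-M, where 6.78% of all tested genes were called lower, and 1 higher, where 9.61% were. The median log2 difference of the 32 tested ligands was -0.72, against 0.01 over all genes. Cxcl9, which is induced by interferon gamma, measured 2.58, 6.59, 2.43 and 2.26 CPM in YAP-M and 9.15, 79 and 54.4 CPM in YMdIDR, and had no count in SVZ or NSC-YAP. The construct groups did not overlap, and YMdIDR replicate 1 lay nearest to YAP-M. With SVZ set to a limit of 3 counts for its 3 libraries together, Cxcl9 was at least 75.2-fold higher in YAP-M and at least 1007-fold higher in YMdIDR. Between constructs it was lower in YAP-M by -3.77 ± 0.71 (log2 fold change, SE, edgeR adjusted p = 0.0036), and by -4.26 ± 0.44 without YMdIDR replicate 1.

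Cxcl10, the most abundant of the 3 per kilobase in YAP-M (7.83 ± 1.15 CPM per kb, SD, n = 4), is induced by all types of interferon and by NF-kB. It measured 16.4, 21.1, 18 and 15 CPM in YAP-M, 23.3, 39.1 and 38.2 CPM in YMdIDR, 0.276, 1.3 and 0.635 CPM in SVZ and 0.814 and 0.245 CPM in NSC-YAP. It was higher in YAP-M than in SVZ by 4.56 ± 0.45 (log2 fold change, SE, edgeR adjusted p = 3.7e-06). Its difference of -0.93 ± 0.34 from YMdIDR had an adjusted p of 0.045 but fell short of the fold threshold, although the groups did not overlap, and it was called without YMdIDR replicate 1 (-1.13 ± 0.33, adjusted p = 0.017). Cxcl11 measured 1.29 to 3.04 CPM in YAP-M, 2.56 to 8.06 in YMdIDR, 0.0921 to 0.147 in SVZ and 0 in NSC-YAP. Its call between the constructs (-1.14 ± 0.41 SE, adjusted p = 0.046) rested on overlapping groups and was lost under 9 of the alternatives. Lymphocyte markers (8 genes) summed to 1.92 to 3.2 CPM in YAP-M, 2.82 to 4.95 in YMdIDR and 27.1 to 30.2 in SVZ, where Cd4 made up 26.4 to 29.3 CPM; the T cell marker Cd3e measured at most 0.397 CPM in any library and the receptor Cxcr3 at most 0.486.

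**Figure D3:**
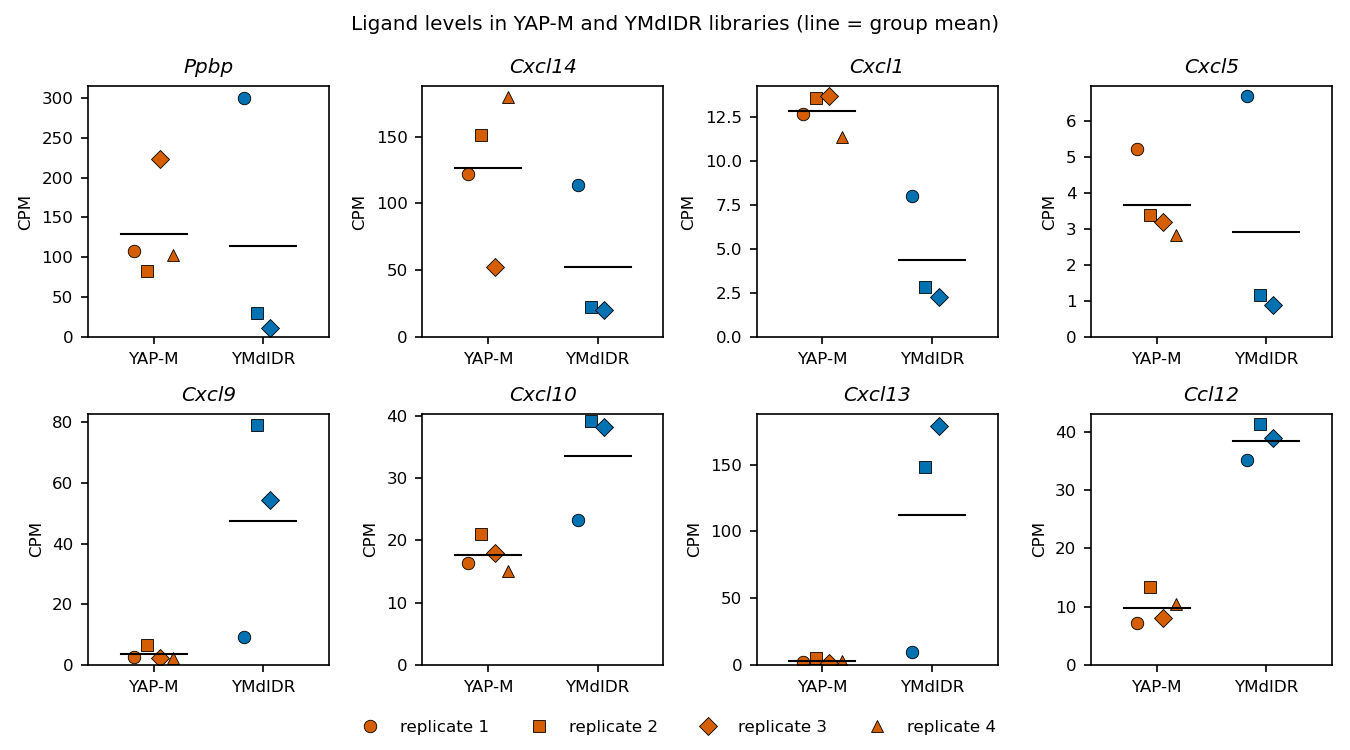
Levels in CPM (y axis, from 0) of 8 ligands in the 4 YAP-M and 3 YMdIDR libraries; marker shapes give the replicate and lines the group means. YMdIDR replicate 1 (circle) lies with or above YAP-M for Ppbp, Cxcl14 and Cxcl5 and nearest to YAP-M for Cxcl1, Cxcl9, Cxcl10, Cxcl13 and Ccl12.

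Among the homeostatic and tissue ligands, Cxcl13 and Cxcl16 were called higher in YAP-M than in SVZ, Cxcl12 and Cx3cl1 lower, and Cxcl14 not called. Cxcl13 attracts B cells through CXCR5 and shapes lymphoid follicles. It measured 1.84, 4.89, 1.36 and 3.01 CPM in YAP-M, 9.79, 148 and 179 CPM in YMdIDR, 0.23, 0.0899 and 0.0489 CPM in SVZ and 0.0407 and 0 CPM in NSC-YAP. The groups did not overlap, and YMdIDR replicates 2 and 3 lay far above every other library. Cxcl13 showed the largest difference of any ligand between the constructs, -5.33 ± 0.80 in YAP-M (log2 fold change, SE, edgeR adjusted p = 0.00048), or -5.87 ± 0.38 without YMdIDR replicate 1. It was higher in YAP-M than in SVZ by 4.43 ± 1.30 (adjusted p = 0.0082). Its receptor Cxcr5 measured at most 0.256 CPM in any library.

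Cxcl16, a membrane-bound ligand and scavenger receptor made by macrophages among other cells, measured 53.3, 51.1, 44.6 and 70.9 CPM in YAP-M, 64.4, 95.3 and 95.9 CPM in YMdIDR, 1.43, 1.17 and 1.56 CPM in SVZ and 0.285 and 0.0815 CPM in NSC-YAP. It had the smallest adjusted p of the ligands in YAP-M against SVZ (5.31 ± 0.27 SE, edgeR adjusted p = 4.1e-08). Between the constructs it differed by -0.63 ± 0.20 (adjusted p = 0.026), short of the fold threshold, with overlapping groups. Its receptor Cxcr6 measured 0.519 to 0.938 CPM in YAP-M and 0.442 to 0.811 in YMdIDR.

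Cx3cl1, or fractalkine, was lower in both construct groups than in either control group. It measured 556, 525 and 444 CPM in SVZ, 40.5, 22.9, 36.5 and 46.6 CPM in YAP-M, 38.1, 18.4 and 35 CPM in YMdIDR and 112 and 113 CPM in NSC-YAP. The construct groups overlapped with each other and lay below both control groups. Cx3cl1 was lower in YAP-M than in SVZ by -3.79 ± 0.27 (log2 fold change, SE, edgeR adjusted p = 3.7e-07) and than in NSC-YAP by -1.62 ± 0.28 (adjusted p = 0.00033), and it differed between the constructs by 0.26 ± 0.26 (adjusted p = 0.43). Neuronal markers (7 genes) summed to 4282 to 4527 CPM in SVZ, 211 to 567 in YAP-M, 221 to 332 in YMdIDR and 750 to 817 in NSC-YAP. The sums shared the order of Cx3cl1, but single markers did not all do so. Against NSC-YAP, 4 of the 7 (Snap25, Syt1, Tubb3 and Slc17a7) were called higher in YAP-M, where 28.9% of all genes were. Map2 and Gad1 were called lower, where 21.6% were. The part of neurons in the Cx3cl1 values was not tested.

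Cxcl12, the ligand of CXCR4 made by vascular, meningeal and other stromal cells, measured 49.8, 56.5 and 65.1 CPM in SVZ, 21.1, 9, 11.4 and 18.6 CPM in YAP-M, 19.8, 71.1 and 24.4 CPM in YMdIDR and 0.57 and 0.938 CPM in NSC-YAP. YMdIDR replicate 2 alone reached the SVZ range. Cxcl12 was lower in YAP-M than in SVZ by -1.93 ± 0.42 (SE, edgeR adjusted p = 0.0014). Its call between the constructs (-1.35 ± 0.42, adjusted p = 0.023) was lost without YMdIDR replicate 2, where the difference was -0.52 (adjusted p = 0.20). It was also lost without YAP-M replicate 2 or 3. Without YMdIDR replicate 2 Cxcl12 was lower in YMdIDR than in SVZ by -1.35 (adjusted p = 0.0037), against -0.57 ± 0.45 (adjusted p = 0.26) with it. Endothelial markers (6 genes) summed to 134 to 188 CPM in SVZ, 244 to 357 in YAP-M, 158 to 221 in YMdIDR and 22.2 to 23.1 in NSC-YAP, and fibroblast markers (6 genes) to 137 to 162, 403 to 1477, 423 to 1583 and 6.12 to 7.29 CPM. Their part in the Cxcl12 values was not tested.

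Cxcl14, a broadly made tissue chemokine, measured 101, 91.4 and 106 CPM in SVZ, 122, 151, 52.3 and 180 CPM in YAP-M, 114, 22.3 and 20.5 CPM in YMdIDR and 12.2 and 12.7 CPM in NSC-YAP. It was not called in YAP-M against SVZ (0.35 ± 0.56 SE, edgeR adjusted p = 0.58), where the YAP-M range enclosed the SVZ range. YMdIDR replicate 1 lay within the YAP-M range and replicates 2 and 3 below it. The difference between the constructs was 1.28 ± 0.57 (adjusted p = 0.094) with all libraries and 2.56 ± 0.41 (adjusted p = 0.00077) without YMdIDR replicate 1. Cxcl17 measured at most 0.298 CPM in any library.

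Monocyte-attracting CC ligands such as Ccl2, Ccl7 and Ccl12 signal through CCR2. The 4 members of this list, which also holds Ccl8, were called higher in YAP-M than in SVZ. Ccl2 and Ccl12 were called lower in YAP-M than in YMdIDR. Ccl2, the principal monocyte attractant, measured 8.32, 8.3, 11.3 and 7.49 CPM in YAP-M, 20.2, 24 and 18.7 CPM in YMdIDR, 0.138, 0.135 and 0 CPM in SVZ and 0.204 and 0.367 CPM in NSC-YAP. The constructs did not overlap, and the 3 YMdIDR libraries, replicate 1 included, lay together. Ccl2 was higher in YAP-M than in SVZ by 6.50 ± 0.43 (log2 fold change, SE, edgeR adjusted p = 2.0e-07) and lower than in YMdIDR by -1.25 ± 0.26 (adjusted p = 0.0029).

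Ccl12, a mouse CCR2 ligand close to Ccl2, showed the same order with a wider gap. It measured 7.17, 13.4, 8.1 and 10.5 CPM in YAP-M, 35.2, 41.4 and 38.9 CPM in YMdIDR, 0.553, 0.315 and 0.538 CPM in SVZ and 0.0407 and 0 CPM in NSC-YAP. The lowest YMdIDR library lay well above the highest YAP-M library. The log2 fold change was 4.38 ± 0.31 (SE, edgeR adjusted p = 3.4e-07) against SVZ and -1.97 ± 0.23 (adjusted p = 0.00012) against YMdIDR. Ccl7, a CCR2 ligand between Ccl2 and Ccl11 on chromosome 11, measured 17.9, 21.3, 22.2 and 10.8 CPM in YAP-M, 30.8, 11.1 and 7.82 CPM in YMdIDR, 0, 0.0899 and 0.0977 CPM in SVZ and 0 in NSC-YAP. It was higher in YAP-M than in SVZ by 8.07 ± 0.80 (adjusted p = 7.0e-06), and the constructs overlapped. Ccl8 measured 0.426 to 1.78 CPM in YAP-M, 1.98 to 2.61 in YMdIDR, 0.045 to 0.44 in SVZ and 0 in NSC-YAP.

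The calls for Ccl2, Ccl12, Cxcl9 and Cxcl13 were the 4 of the 10 between the constructs that held under every alternative in which the gene was tested. Without YMdIDR replicate 1, 9 ligands were called lower in YAP-M (6.78% of all genes), 8 of them shared with the full set, and 4 higher (14.1% of all genes): Cxcl1, Cxcl14, Cxcl5 and Ppbp. Without YMdIDR replicate 2 or 3, none was called higher at a background of 7.82% or 8.04%, and 6 or 7 were called lower at 5.79% or 7.05%.

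A further group of inflammatory CC ligands (Ccl3, Ccl4, Ccl5, Ccl6 and Ccl9) attracts monocytes, macrophages and activated T cells. The 5 members were called higher in YAP-M than in SVZ and none was called between the constructs, where their log2 differences ran from -1.06 to 0.57. Ccl5 measured 9.35, 11.3, 7.08 and 12 CPM in YAP-M, 13, 9.37 and 13.6 CPM in YMdIDR, 0.184, 0.225 and 0.0977 CPM in SVZ and 0 and 0.0815 CPM in NSC-YAP. Ccl9 measured 18.3, 41.5, 26.4 and 37.5 CPM in YAP-M, 37.7, 36.5 and 23.6 CPM in YMdIDR, 2.44, 2.88 and 3.91 CPM in SVZ and 0 and 0.122 CPM in NSC-YAP. Both genes, a broad leukocyte attractant and a mouse myeloid chemokine, overlapped between the constructs and stood apart from the controls. Against SVZ the log2 fold change in YAP-M was 5.82 ± 0.41 for Ccl5 (SE, edgeR adjusted p = 2.9e-07) and 3.33 ± 0.36 for Ccl9 (adjusted p = 7.5e-06).

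Ccl6, a further mouse myeloid chemokine, measured 12.8, 25.7, 23.6 and 23.6 CPM in YAP-M, 18, 15 and 10.3 CPM in YMdIDR, 2.26, 3.19 and 4.79 CPM in SVZ and 0.0407 and 0 CPM in NSC-YAP. Ccl3, macrophage inflammatory protein 1 alpha, measured 2.32, 5.71, 6.31 and 5.38 CPM in YAP-M, 9.75, 7.84 and 6.58 CPM in YMdIDR, 0.921, 0.315 and 1.08 CPM in SVZ and 0 in NSC-YAP. Ccl4, its beta counterpart and neighbour, measured 1.21, 4.41, 2.43 and 3.45 CPM in YAP-M, 5.26, 8.15 and 4.64 CPM in YMdIDR, 0, 0.135 and 0.195 CPM in SVZ and 0 and 0.0408 CPM in NSC-YAP. For Ccl3 and Ccl4 each YMdIDR library lay above each YAP-M library, but neither passed the test (log2 difference -0.71 ± 0.38 SE, edgeR adjusted p = 0.16, and -1.06 ± 0.46, adjusted p = 0.085). In YAP-M against SVZ the log2 fold changes were 2.65 ± 0.34 for Ccl6, 2.67 ± 0.46 for Ccl3 and 4.66 ± 0.70 for Ccl4. Of the CCR3 ligands, which attract eosinophils, Ccl11 was tested and measured 1.8, 3.19, 2.73 and 0.186 CPM in YAP-M, 0.36 to 1.41 in YMdIDR and at most 0.0899 elsewhere; Ccl24 measured at most 0.597 CPM, and Ccl26 had no count.

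Lymphoid and barrier CC ligands guide lymphocytes into lymphoid organs, skin and mucosa. Of the 13 CC and XC members, 9 were tested, 6 were called lower in YAP-M than in SVZ and 1, Ccl20, higher. Ccl27a, a skin-homing chemokine, measured 96.5, 67.9 and 76.3 CPM in SVZ, 5.85, 5.82, 8.32 and 4.71 CPM in YAP-M, 25.1, 9.91 and 13.8 CPM in YMdIDR and 3.74 and 4.57 CPM in NSC-YAP. The 4 groups stood in separate ranges, with NSC-YAP next below YAP-M. The log2 fold change of Ccl27a in YAP-M was -3.70 ± 0.30 against SVZ (SE, edgeR adjusted p = 8.6e-07) and -1.40 ± 0.29 against YMdIDR (adjusted p = 0.003), the latter -0.95 and no longer called without YMdIDR replicate 1. Ccl27b measured 7.6, 4.14 and 6.11 CPM in SVZ, 0.515, 0.222, 1.07 and 0.408 CPM in YAP-M, 2.39, 0.18 and 0.486 CPM in YMdIDR and 0 and 0.0815 CPM in NSC-YAP.

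Ccl19, a CCR7 ligand of lymphoid tissue, measured 7, 6.65 and 7.62 CPM in SVZ, 1.36, 0.556, 1.11 and 0.445 CPM in YAP-M, 1.54, 1.22 and 1.59 CPM in YMdIDR and 0 in NSC-YAP, and was lower in YAP-M than in SVZ by -3.03 ± 0.35 (SE, edgeR adjusted p = 2.0e-05). Ccl21a and Ccl21b, the other CCR7 ligands, measured 2.2 to 3.73 and 1.44 to 3.73 CPM in SVZ and at most 0.445 and 1.48 CPM in YAP-M; the call for Ccl21b (-1.48 ± 0.58, adjusted p = 0.038) was lost in 7 alternatives. Ccl21a was called lower in YAP-M than in YMdIDR (-2.54 ± 0.74 SE, edgeR adjusted p = 0.018). However, YMdIDR replicate 2, at 0.18 CPM, lay within the YAP-M range of 0.148 to 0.445 CPM. YMdIDR replicates 1 and 3 were at 2.05 and 2.83 CPM, and the call was lost without replicate 3 (-1.95, adjusted p = 0.079). Near-identical copies of Ccl19, Ccl21a, Ccl21b, Ccl21c, Ccl27a and Ccl27b stand on several lines of the tables, with equal or near-equal counts on some, so the level of each copy is uncertain. Ccl25, a CCR9 ligand of thymus and gut, measured 8.8, 7.64 and 6.4 CPM in SVZ, 3.2, 2.74, 3.45 and 3.45 CPM in YAP-M, 3.97, 5.45 and 6.84 CPM in YMdIDR and 10.1 and 10.4 CPM in NSC-YAP. It was lower in YAP-M than in SVZ by -1.25 ± 0.20 (adjusted p = 0.00014) and, at -0.75 ± 0.20 (adjusted p = 0.011), short of the fold threshold against YMdIDR.

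Ccl20, the CCR6 ligand, measured 0.92 to 2.9 CPM in YAP-M, 2.38 to 7.75 in YMdIDR, a single count in SVZ and none in NSC-YAP, so its count ratio in YAP-M to SVZ was 99.8 (95% counting interval 17.7 to 3966). Its call against YMdIDR (-1.59 ± 0.50 SE, edgeR adjusted p = 0.027) came with overlapping groups. That call was lost without YMdIDR replicate 2 (-1.01, adjusted p = 0.15) and without YAP-M replicate 1, 2 or 4. Ccl28 measured 2.1 to 3.09 CPM in SVZ, 2.61 to 3.71 in NSC-YAP, 0.148 to 2.05 in YAP-M and 0.225 to 0.641 in YMdIDR, and Ccl17 0.519 to 1.83 CPM over the 12 libraries. Ccl1, Ccl21c, Ccl22 and Xcl1 measured at most 0.265, 1.11, 1.04 and 0.0901 CPM.

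The cultured NSC-YAP cells, which overexpress YAP, carried few ligand transcripts. Against NSC-YAP, 26 ligands were called higher in YAP-M (28.9% of all genes were) and 3 lower (21.6%, or 50.4% in either direction): Ccl25, Ccl28 and Cx3cl1. In YMdIDR against NSC-YAP, 28 were called higher (27.4% of all genes) and 2 lower (20.4%), Ccl28 and Cx3cl1. Without YMdIDR replicate 1, Cxcl14 was no longer called higher there (0.785, edgeR adjusted p = 0.12). Of the 32 tested ligands, 18 reached the filter on low counts through the construct libraries and not in the controls. These counts against NSC-YAP, and the medians below, therefore describe the ligands and lend no support to a direction. In NSC-YAP against SVZ, 17 ligands were called lower (27.6% of all genes) and 1, Ccl2, higher (17.5%). The Ccl2 call was a log2 fold change of 1.57 ± 0.63 (SE, edgeR adjusted p = 0.047) at levels of at most 0.367 CPM, and it was lost without the filter on low counts, with the compared groups alone, without SVZ replicate 3 and without NSC-YAP replicate 2. Ligands at 0 counts in a group make medians of fitted values unstable: with them held at a floor of 3 counts, the median over the 32 tested ligands was 5.11 in place of 7.52 in YAP-M against NSC-YAP and 6.07 in place of 8.07 for YMdIDR. In NSC-YAP the lymphocyte markers summed to at most 0.489 CPM and the neutrophil markers to at most 0.122 CPM. Among the macrophage markers Cd68, a lysosomal protein, measured 39.3 and 39.7 CPM in NSC-YAP, more than the 13.5 to 14.8 CPM in SVZ, and the other 11 were called lower than in SVZ. Their part in the ligand values was not tested, and culture and construct cannot be told apart there.

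Receptor genes were followed in the same libraries. Of the 18 receptor genes 7 were tested, and 6 were called higher in YAP-M than in SVZ (Ccr1, Ccr2, Ccr7, Cxcr2 and Cxcr4 among them), where 25.8% of all genes were, none lower and none in either direction against YMdIDR. Ccr1, Ccr2, Ccr7 and Cxcr2 reached the filter through the construct libraries and not in the controls, so the count is a description. Ccr1 measured 30.5, 55.9, 37.5 and 67 CPM in YAP-M, 36.2, 41.8 and 45.1 CPM in YMdIDR, 0.599, 0.764 and 1.61 CPM in SVZ and 0 and 0.0815 CPM in NSC-YAP. Ccr1, found on macrophages and other myeloid cells, lay clear of the controls in both construct groups. Ccr2, the receptor of Ccl2, Ccl7 and Ccl12 on inflammatory monocytes, measured 3.64, 10.8, 5.03 and 24.6 CPM in YAP-M, 5.56, 24.9 and 19.5 CPM in YMdIDR, 0.461, 0.36 and 0.0977 CPM in SVZ and 0 in NSC-YAP. The log2 fold changes in YAP-M against SVZ were 5.59 ± 0.42 for Ccr1 (SE, edgeR adjusted p = 4.8e-07) and 5.13 ± 0.94 for Ccr2 (adjusted p = 0.00053).

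The fractalkine receptor did not follow its ligand. Cx3cr1 measured 73.4, 83.5 and 107 CPM in SVZ, 159, 158, 109 and 142 CPM in YAP-M, 165, 154 and 139 CPM in YMdIDR and 0 and 0.0815 CPM in NSC-YAP. It differed by 0.69 ± 0.19 (log2, SE, edgeR adjusted p = 0.0053) between YAP-M and SVZ, short of the fold threshold, while Cx3cl1 fell. Cxcr4, the receptor of Cxcl12, measured 11.1, 15, 16.1 and 18.3 CPM in YAP-M, 11.5, 14.6 and 14 CPM in YMdIDR, 3.59, 4.27 and 3.32 CPM in SVZ and 40.6 and 45.4 CPM in NSC-YAP. It was higher in YAP-M than in SVZ by 2.02 ± 0.19 (adjusted p = 2.2e-06) and lower than in NSC-YAP by -1.51 ± 0.18 (adjusted p = 2.3e-05), so the cultured progenitors held the most Cxcr4 and the least Cxcl12.

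Atypical receptors bind chemokines without G protein signalling and take them up or present them. Of 5, 4 were tested: Ackr2, Ackr3 and Ccrl2 were called higher in YAP-M than in SVZ and Ackr1 lower, and Ackr1 and Ccrl2 were called higher in YAP-M than in YMdIDR. Ccrl2 measured 16.5, 20.3, 17.4 and 16.1 CPM in YAP-M, 5.21, 5.41 and 5.96 CPM in YMdIDR, 1.06, 1.84 and 1.91 CPM in SVZ and 0 in NSC-YAP. The 3 groups with counts stood in separate ranges, YAP-M above YMdIDR by 1.67 ± 0.20 (log2, SE, edgeR adjusted p = 0.00021). Ackr3, which takes up Cxcl12, measured 62.4, 62.2, 79 and 88.7 CPM in YAP-M, 52.3, 56.5 and 29.4 CPM in YMdIDR, 13.6, 11.9 and 12.4 CPM in SVZ and 27.2 and 25.9 CPM in NSC-YAP, and was higher in YAP-M than in SVZ by 2.53 ± 0.23 (adjusted p = 1.7e-06). Ackr1, which carries chemokines across venular endothelium, measured 29.7, 24 and 28.8 CPM in SVZ, 4.71, 4.93, 14.4 and 10.2 CPM in YAP-M, 4.1, 1.26 and 4.46 CPM in YMdIDR and 1.3 and 0.693 CPM in NSC-YAP. Its difference between the constructs (1.38 ± 0.48, adjusted p = 0.037) was lost with the compared groups alone and without YAP-M replicate 3 or 4 or YMdIDR replicate 2.

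**Figure D4:**
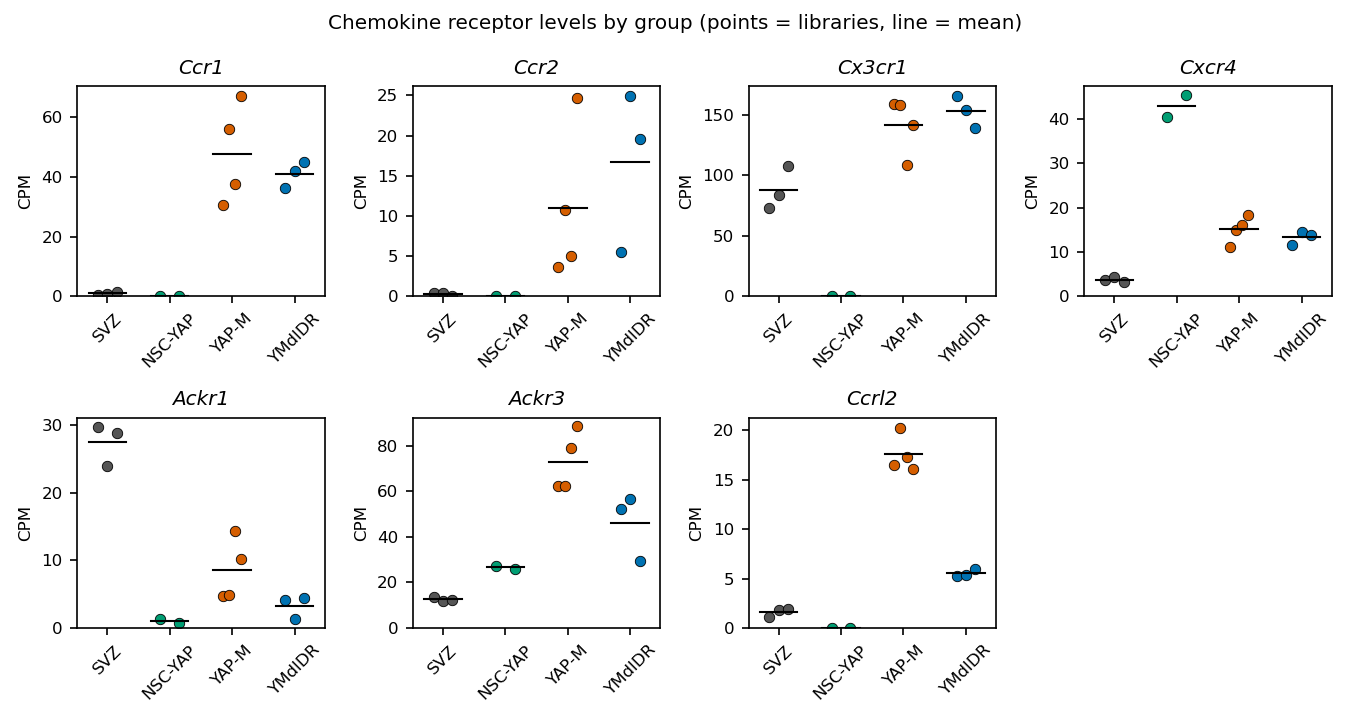
Levels in CPM (y axis, from 0) of 7 chemokine receptor genes in the SVZ, NSC-YAP, YAP-M and YMdIDR libraries; points are libraries and lines group means. Ccr1 and Ccr2 are low in SVZ and NSC-YAP and high in both construct groups, Cxcr4 is highest in NSC-YAP at 40.6 and 45.4 CPM, and Ccrl2 separates YAP-M from YMdIDR.

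NF-kB signalling and inflammatory cytokines act upstream of many inflammatory chemokines. Of 11 NF-kB components and feedback genes, 10 were called higher in YAP-M than in SVZ (25.8% of all genes were) and none lower, with a median log2 fold change of 1.98 against -0.04 over all genes; against YMdIDR none was called higher and Nfkb2 and Nfkbie lower. Against NSC-YAP 4 of the 11 were called higher in YAP-M (28.9% of all genes were) and 7 were not called. Rela, a main NF-kB subunit gene, measured 59.7 to 74.0 CPM in YAP-M and 64.1 and 65.3 CPM in NSC-YAP. NSC-YAP itself had 4 of the 11 called higher than SVZ (17.5% of all genes were) and Birc3 lower. The smallest adjusted p was that of Tnfaip3, an NF-kB feedback inhibitor, at 107 to 169 CPM in YAP-M, 97.7 to 144 in YMdIDR, 3.33 to 4.25 in SVZ and 6.56 to 7.37 in NSC-YAP (5.18 ± 0.22 against SVZ, SE, edgeR adjusted p = 1.3e-08). Nfkb2, the p100 subunit gene, measured 39.1 to 48 CPM in YAP-M, 75 to 116 in YMdIDR and 3.13 to 4.67 in SVZ, a difference of -1.09 ± 0.16 between the constructs (adjusted p = 0.00041). Of 11 inflammatory cytokines 9 were tested. In YAP-M against SVZ, 7 of them were called higher (25.8% of all genes were) and 2, Il33 and Il34, lower (28.9%). Against YMdIDR, 3 were called lower in YAP-M, where 6.78% of all genes were, and none higher, where 9.61% were. The 3 were Il11 (2.17 to 3.05 CPM in YAP-M, 4.46 to 10.2 in YMdIDR), Tnf (1 to 1.62 and 3.14 to 6.03) and Il1b (1.3 to 3.37 and 4.23 to 14). For these 3 cytokines, as for Ccl2 and Ccl12, the YMdIDR libraries including replicate 1 lay above the YAP-M libraries. Macrophage markers, which overlapped between the constructs in their sum, were called in 1 of 12 in each direction (Mrc1 higher and Tmem119 lower in YAP-M); their part in the ligand values was not tested.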

How the data were processed

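Bulk RNA-seq was available for 12 libraries (4 YAP-M, 3 YMdIDR, 3 SVZ and 2 NSC-YAP), and the other 5 of the 17 samples of the series were not analysed here. The deposited values are raw read counts per gene, which the authors made after alignment with TopHat2 to mm10, per the submitters' processing notes. For the counter, the annotation, the strand setting and the treatment of reads with several matches, the entry is: not given in the sources used here.

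Lines that share a symbol were summed. The 18329 genes that reached 1 CPM in 2 or more libraries were fitted over the 4 groups with edgeR 4.0.16 in R 4.3.3 (TMM scaling, quasi-likelihood test), p-values were adjusted by Benjamini-Hochberg over these genes, and calls needed an adjusted p below 0.05 and a log2 difference of 1 or more in size. Every adjusted p printed is from that test unless DESeq2 1.42.0 is named. SE is the log2 fold change divided by the square root of F. The fit was tested on simulated data. CPM per kb uses the counts and gene length of a single line per symbol, on a named chromosome where there is one. For symbols on several lines it is therefore not the summed CPM divided by length. Depth was 20784130 to 25463303 counts per library. Intervals of count ratios are exact at 95% and, like the limit of 3 counts, cover counting error only.

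Members and lists were chosen with earlier results of these data known. Values in every library are given for ligands whose mean reached 5 CPM in a group, and ranges for the others. Receptors and cell markers under that mean were named after their values were seen. Motifs were searched in the 250 bases before RefSeq starts (GRCm38.p6). Alternatives were no filter or a 5 CPM filter, median-ratio scaling, DESeq2, the replicate number as a block, the compared groups alone, adjusted p alone, the line with the highest mean per symbol, and leaving out each library.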

Additional observations from a re-analysis of the deposited data

Results flagged for a closer look

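In 2 of the 21 ligands examined, a single YAP-M library stood apart from the other YAP-M libraries, judged by its gap to the nearest library as a share of the group's range. Chance flags about 1 in 20 groups of 4. Ccl6, a myeloid chemokine, measured 12.84 CPM in YAP-M replicate 1, below the others at 23.6 to 25.7 CPM (share of the range 0.84). Cxcl9, the interferon gamma-induced ligand, measured 6.594 CPM in YAP-M replicate 2, above the others at 2.26 to 2.58 CPM (share of the range 0.93). No explanation was tested for either.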

How the results depend on the processing

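Of the ligand calls, 28 of 29 in YAP-M against SVZ and 24 of 26 in YMdIDR against SVZ held under every alternative in which the gene was tested, against 4 of 10 in YAP-M against YMdIDR, 26 of 29 in YAP-M and 26 of 30 in YMdIDR against NSC-YAP, and 14 of 18 in NSC-YAP against SVZ. Between these constructs, the number of ligands higher in YAP-M went from 1 to 2 with the replicate block, to 2 with DESeq2, and to between 0 and 4 on leaving out 1 library. With adjusted p alone, 7967 genes were called there in place of 3003. For YMdIDR against NSC-YAP, the ligands called lower went from 2 to 1 with a minimum of 5 CPM. For NSC-YAP against SVZ, the 1 ligand called higher (Ccl2) became 0 with no filter on low counts, 0 with the replicate block and 0 with the compared groups alone, and 0 to 1 on leaving out 1 library.

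Uncalled differences that changed sign were those of Cxcl14 in YAP-M against SVZ (-0.032 with the replicate block), Cxcl5 between the constructs (-0.016 without YMdIDR replicate 2, -0.10 without replicate 3 and 1.83 without replicate 1) and Ppbp between the constructs (-0.20 without YAP-M replicate 3, -0.24 and -0.36 without YMdIDR replicates 2 and 3 and 2.61 without replicate 1). The cause was not tested. Correlations of same-numbered libraries across groups, as deviations from their group means, ran from -0.0968 to 0.386. Those of libraries with different numbers ran from -0.278 to 0.259. With so few libraries per group these values cannot decide whether libraries were paired, and no label states a pairing. The main fit therefore treats them as unpaired, and the replicate block is given as an alternative. Ligands near 3 counts per library are limited by depth.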
